A study of Mus musculus with 3 samples.

Results

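The genes described here encode the glutathione, thioredoxin and peroxide defence of the mouse lung. They were chosen by symbol: the glutathione S-transferases, glutathione peroxidases, peroxiredoxins, thioredoxins and their reductases, superoxide dismutases and catalase, the genes of glutathione supply, and NRF2 (Nfe2l2) with its partner KEAP1 (Keap1). Of 23183 genes in the deposited tables, 57 carried such a symbol and 51 reached 1 FPKM (fragments per kilobase of transcript and 1000000 mapped, so that levels of different genes can be set side by side) in at least 1 library. The 6 others were Gpx5, Gpx6, Gstm3, Gsto2, Gstt4 and Prdx6b, and the nearest of them to the minimum were Gsto2 at 0.753 FPKM and Gpx6 at 0.28 FPKM in their highest libraries. The lowest of those kept were Gsta1 at 1.14 FPKM and Slc7a11 at 3.81 FPKM. All 51 kept genes are accounted for below.

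Lung RNA of female BALB/c mice was sequenced in 3 libraries, 1 per group. The control group is labelled only as control, with no vehicle named. The PM10 group received a certified reference dust (ERMCZ-120) into the nose, in 20 µL of saline, 4 times over 2 weeks, and the labels give doses of 100 or 200 µg without saying which was sequenced. The OVA+PM10 group had the same dust together with ovalbumin (OVA, an egg-white protein used to model allergic asthma): 20 µg with aluminium hydroxide into the abdomen on day 1 (day 0 in another field) and day 14, then 30 µL of a 1 mg/mL solution into the nose on days 21, 22 and 23. Lungs were collected 2 days later. Age is given as 10 weeks in one field and as 5 to 6 weeks in another, each group had 5 mice, and the labels do not say whether a library pooled them. A group given OVA without dust was not analysed here.

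Glutathione is a small thiol that cells make from cysteine, glutamate and glycine, and that glutathione peroxidases and glutathione S-transferases use to reduce peroxides and to conjugate reactive chemicals. Peroxiredoxins reduce peroxides with electrons from thioredoxin, which thioredoxin reductase recharges from NADPH. NRF2 is a transcription factor that KEAP1 holds at a low level until oxidants or electrophiles modify it; NRF2 then binds antioxidant response elements near many of these genes. In the lung, airway club cells, alveolar type 2 cells and macrophages are known for high levels of several of these enzymes.

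Summed FPKM differed among the libraries (546315 in control, 1293180 in PM10 and 855739 in OVA+PM10), and the spacing of low values corresponded to about 20.1, 13.1 and 15.2 times 1000000 reads. The 51 genes together made up 1.00%, 0.879% and 0.990% of these sums. Markers of tissues outside the lung were high in the control library: 12 skeletal muscle markers summed to 5032 FPKM there against 22.8 in PM10 and 33.2 in OVA+PM10 (3 and 4 of them listed at 0), and 14 markers of stratified squamous epithelium summed to 6455 FPKM against 44.4 and 47.7 (7 and 4 listed at 0). The sums of 12 adipose markers (470, 55.3 and 195 FPKM) and 12 cardiac muscle markers (896, 209 and 396 FPKM) were also highest in control. Of these, 3 adipose markers were listed at 0 in PM10 and 1 in OVA+PM10, and 1 cardiac marker was highest in OVA+PM10. Lung markers were present in all 3 libraries, with all 12 alveolar type 2 and all 12 club cell markers at 1 FPKM or more. The part of these tissues in the values below was not tested. Ratios are log2 of FPKM + 1, a scale that understates differences of low genes, and a gene is counted as higher or lower at 2-fold or more on that scale. With 1 library per group there is no test, and each ratio compares 2 libraries, not 2 treatments. In bulk tissue, a change in the number of cells of a type and a change in RNA per cell cannot be told apart.

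In PM10 against control, 14 of the 51 genes (27.5%) were higher by 2-fold or more, against 13.6% of all 13693 genes compared. The genes on that side were Gpx1, Gpx4, Gpx7, Gpx8, Gstk1, Gstm4, Gstt2, Mgst1, Prdx1, Prdx2, Prdx4, Slc7a11, Sod1 and Txn1. Gstp2 and Sod3 were at least 2-fold lower (3.92% of the 51, against 13.9% of all genes). The median log2 ratio of the 51 genes was 0.55, and that of all genes was 0.02. In OVA+PM10 against control, 7 genes (13.7%) were higher, namely Gpx1, Gsr, Gsto1, Gstt2, Mgst1, Mgst2 and Prdx4, against 9.95% of all genes. None was at least 2-fold lower, against 8.68% of all genes. Both comparisons share the control library, so their agreement is not independent. Between the exposed libraries, Gclc, Gsr, Gsto1, Gstp2 and Sod3 were at least 2-fold higher with OVA+PM10 than with PM10 (9.80%, against 11.8% of all genes), and Gpx3, Gpx4 and Prdx1 were lower (5.88%, against 9.0%). In all, 21 of the 51 genes (41.2%) were 2-fold apart in at least 1 comparison and 30 in none, a share near that of all genes (40.4%).

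These ratios ran with transcript length. The 51 genes have short transcripts, with a median of 1377 bases against 2750.5 over all genes, and 52.9% of them are under 1500 bases against 19.6% of all genes. In the PM10 library, short genes as a whole had higher FPKM relative to control: at the length of Sod1 (641 bases) the running median over all genes was 1.35 on the log2 scale, and at the length of Gsr (2673 bases) it was 0.02. With this trend subtracted, 5 genes were higher and 9 lower in PM10 against control (9.80% and 17.6%, against 6.25% and 11.3% of all genes), and the median of the 51 was 0.09. For OVA+PM10 against control the counts were 8 higher and 0 lower (15.7%, against 7.34% of all genes higher and 8.45% lower). For OVA+PM10 against PM10 they were 11 higher and 1 lower (21.6% and 1.96%, against 12.0% and 6.36%). Giving each library an equal sum of FPKM moved the median of all genes to -1.03, -0.58 and 0.49 in the 3 comparisons. On that scale 1 gene was higher and 19 lower in PM10 against control (1.84% and 51.8% of all genes), 2 higher and 4 lower in OVA+PM10 against control (4.49% and 24.5%), and 13 higher and 0 lower in OVA+PM10 against PM10 (24.7% and 2.51%). The cause of the length trend was not tested.

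**Figure D1:**
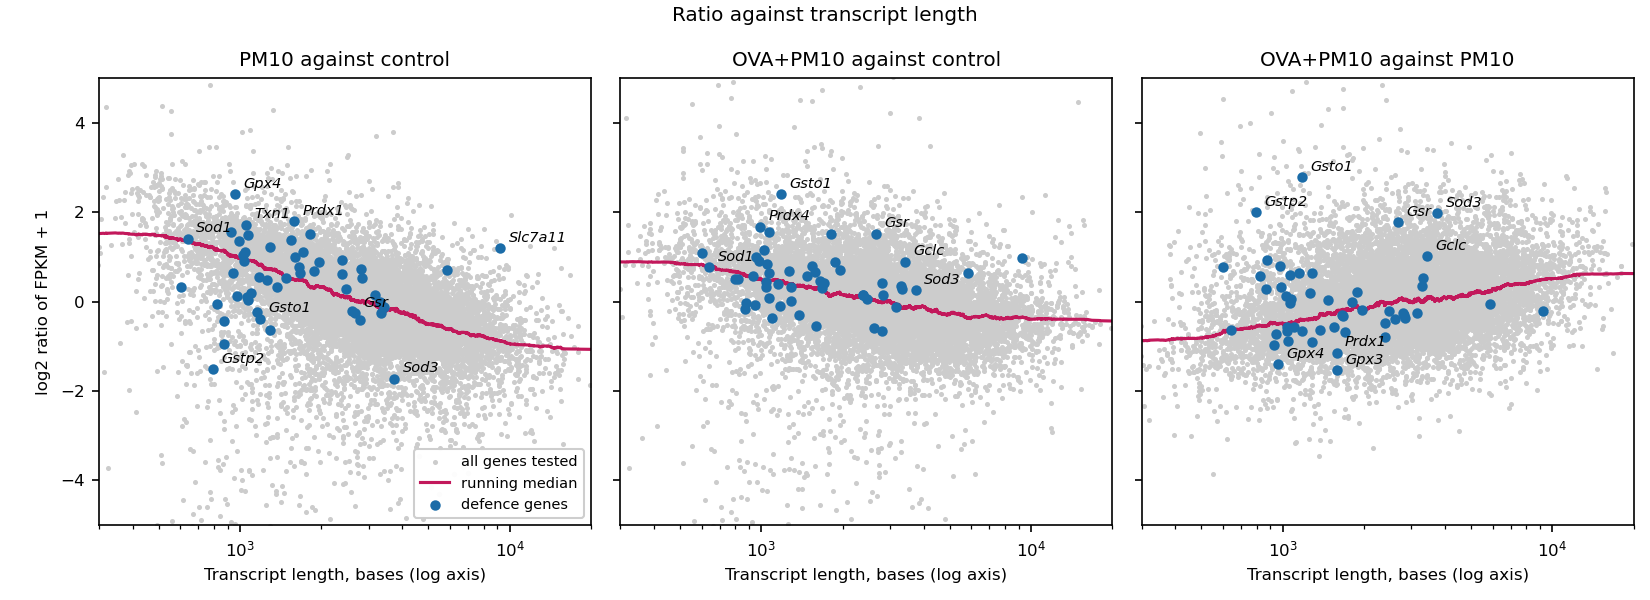
Log2 ratio of FPKM + 1 (y axis) against transcript length in bases (x axis, log scale) for each pair of libraries, with all genes as small grey points, the running median over 501 genes as a line and the 51 defence genes as larger points. In PM10 against control the line is highest for the shortest transcripts, where Sod1 lies close to it, whereas Sod3 lies far below it and Gpx4 above it; 110, 100 and 50 genes fall outside the axes of the 3 panels.

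**Figure D2:**
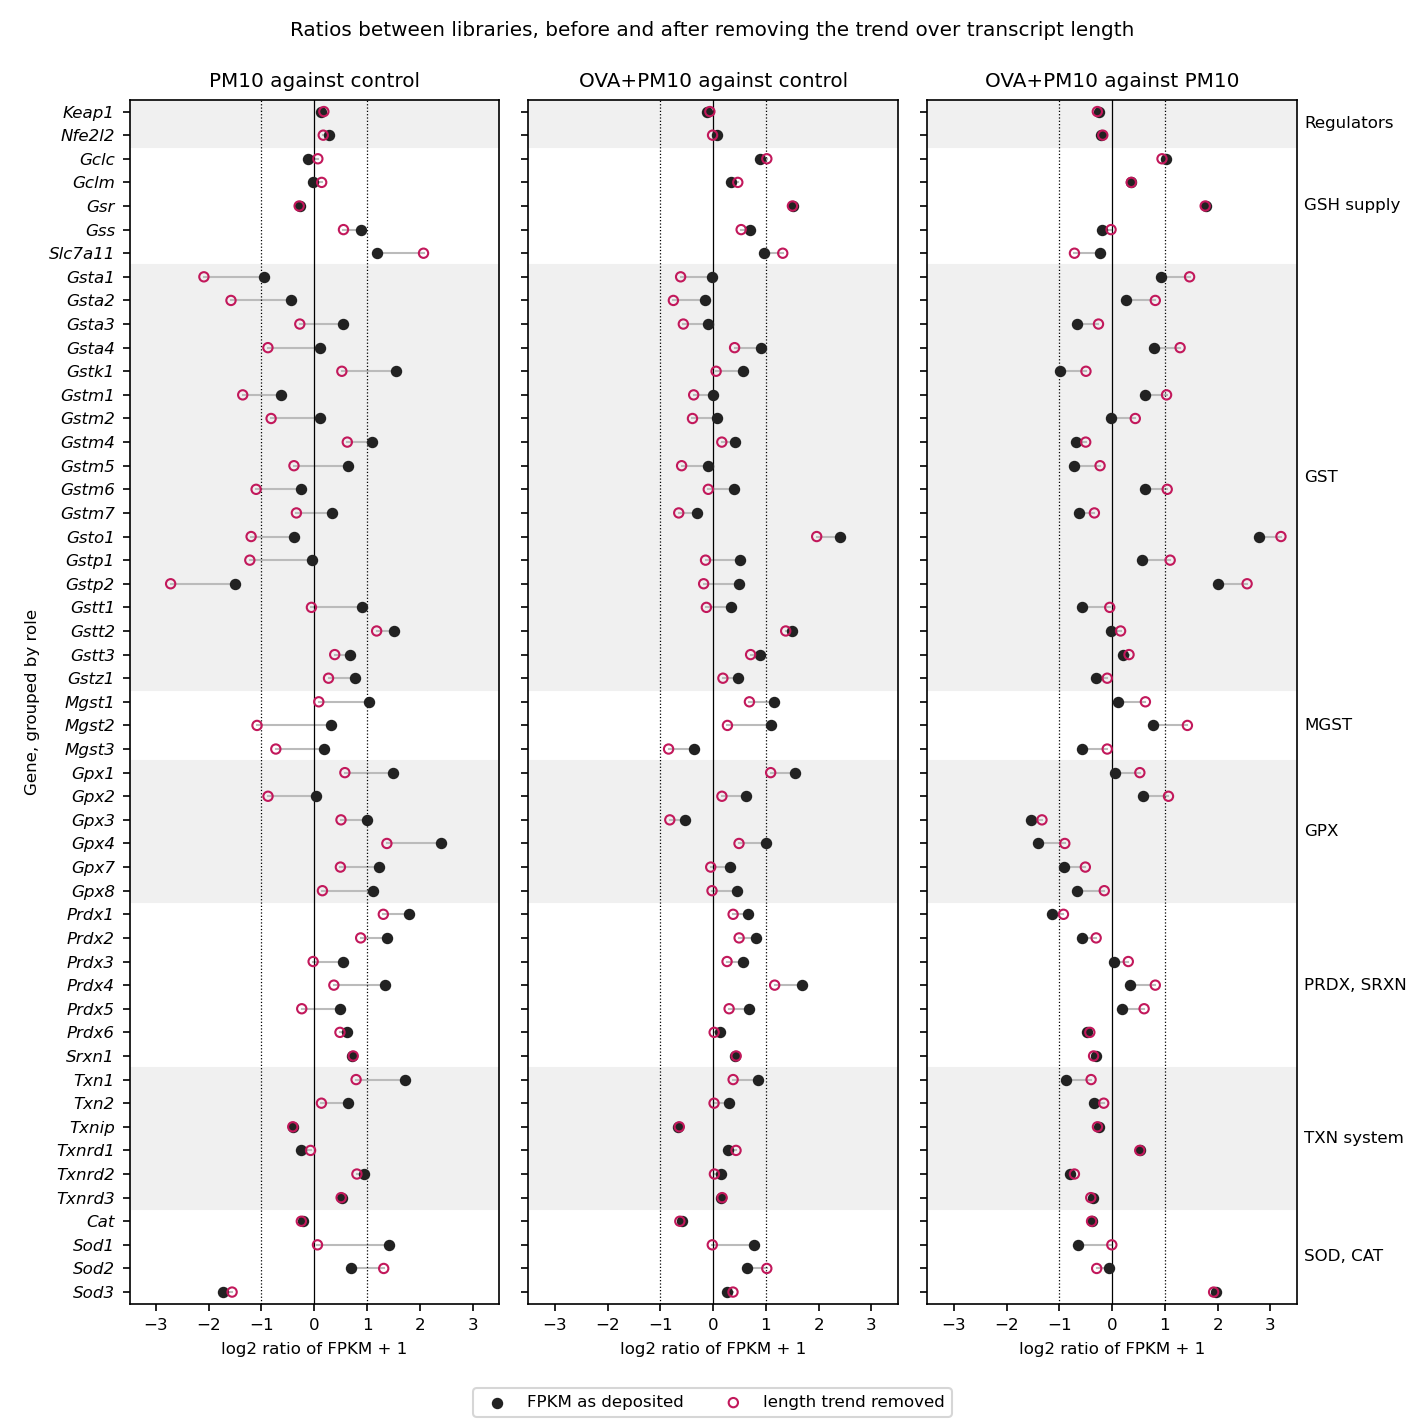
Log2 ratio of FPKM + 1 of each of the 51 genes (x axis) in the 3 comparisons, grouped by role, with filled points for FPKM as deposited, open points after subtraction of the length trend, and dotted lines at 2-fold. Gsto1 (2.40 and 2.79) and Gsr (1.52 and 1.78) stand to the right in both OVA+PM10 panels under either treatment of length, while Sod1 and Txn1 come within 2-fold in PM10 against control once the trend is subtracted.

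The regulators differed little among the libraries. Nfe2l2, which encodes NRF2, was at 59.8 FPKM in control, 72.5 in PM10 and 62.6 in OVA+PM10. Keap1, its inhibitor, was at 15.5, 17.2 and 14.3 FPKM in the same order. All 6 of their log2 ratios lay between -0.25 and 0.27, and subtraction of the length trend left them within 2-fold. NRF2 is controlled largely at the level of its protein, which was not measured. Of 31 other NRF2 targets with a value, 6 were higher and 2 lower in PM10 against control, 7 higher and 1 lower in OVA+PM10 against control, and 2 higher and 1 lower between the exposed libraries; with the length trend subtracted these counts became 1 and 4, 1 and 1, and 5 and 0. Over all genes the shares higher and lower, in the same order, were 13.6% and 13.9%, 9.95% and 8.68%, and 11.8% and 9.0%. With the length trend subtracted they were 6.25% and 11.3%, 7.34% and 8.45%, and 12.0% and 6.36%. Tkt (transketolase, of the pentose phosphate pathway) was at 44.7, 108 and 136 FPKM, more than 2-fold above control in both exposed libraries on either scale. Aldh3a1, an aldehyde dehydrogenase, was at 20.1 FPKM in control, 0.735 in PM10 and 15.7 in OVA+PM10. The ferritin chains Ftl1 (2007, 7529 and 5034 FPKM) and Fth1 (2287, 7659 and 3173 FPKM) were highest in PM10.

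Where the sequence that NRF2 recognises occurs near these genes was read from RefSeq promoter windows (250 bases before to 50 after the start, GRCm38), which were found for 45 of the 51 genes. Those not found were Gclc, Gsr, Gsta4, Gstt2, Prdx6 and Sod3. The core of the antioxidant response element, TGACNNNGC on either strand, occurred in 10 of 45 genes (22.2%), against 14.0% of all 27025 genes with a window. The core can overlap the AP-1 site TGACTCA, as it does in Prdx1; TGACTCA on either strand occurred in 6 of 45 (13.3%, against 5.95%). The stretches below are shown because they place these letters in genes of every role but the glutathione peroxidases, none of which has the core in its window. They read 5′ to 3′ on the gene's strand, with the core in capitals (GCNNNGTCA where it lies on the other strand). They come from chr2:75704885-75704913 (Nfe2l2, minus strand), chr3:122245413-122245441 (Gclm, plus), chr4:116685456-116685484 (Prdx1, plus), chr10:82859104-82859132 (Txnrd1, plus), chr16:90220696-90220724 (Sod1, plus), chr6:138140461-138140489 (Mgst1, plus), chr1:21240454-21240482 (Gsta3, plus), chr3:107895802-107895830 (Gstm5, plus) and chr3:107931725-107931753 (Gstm7, minus).
Nfe2l2: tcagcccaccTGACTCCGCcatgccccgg
Gclm: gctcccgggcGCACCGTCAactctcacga
Prdx1: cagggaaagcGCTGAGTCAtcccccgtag
Txnrd1: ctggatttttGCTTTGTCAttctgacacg
Sod1: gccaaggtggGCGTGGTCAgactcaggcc
Mgst1: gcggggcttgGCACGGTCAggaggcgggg
Gsta3: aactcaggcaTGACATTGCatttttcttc
Gstm5: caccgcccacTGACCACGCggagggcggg
Gstm7: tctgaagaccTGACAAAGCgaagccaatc
The tenth gene, Srxn1, has the core 28 bases after its start. Of these 10 genes, 3 (Mgst1, Prdx1 and Sod1) were at least 2-fold higher in PM10 against control and 1 (Mgst1) in OVA+PM10 against control, and 1 (Prdx1) was lower in OVA+PM10 than in PM10. The share of all genes higher in PM10 against control was 13.6%, and that of the 51 genes 27.5%. In OVA+PM10, 9.95% of all genes were higher than in control and 9.0% were lower than in PM10. With the length trend subtracted Prdx1 (1.31) was the 1 gene of the 10 that stayed 2-fold higher in PM10 against control. The share of all genes was then 6.25%. None of the 10 was then 2-fold apart in the other comparisons. Over all genes the shares higher and lower there were 7.34% and 8.45%, and 12.0% and 6.36%. With the longest transcript as length, Sod1 was also above 2-fold in PM10 against control (1.53). A match of these letters is a description of the window, not evidence of binding.

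Of the 5 genes of glutathione supply, Gsr and Gclc were at least 2-fold higher in OVA+PM10 than in PM10, Gsr was also higher than in control, and Slc7a11 was higher in PM10 than in control. Gsr, glutathione reductase, which regenerates glutathione from its oxidised form (chr8:33652523-33698163, plus strand), was at 19.7 FPKM in control, 16.3 in PM10 and 58.3 in OVA+PM10. Only the OVA+PM10 library was high: it exceeded control 2.96-fold and PM10 3.59-fold (log2 ratios 1.52 and 1.78), and with the length trend subtracted the ratio to PM10 was 1.76. Gclc, the catalytic subunit of glutamate-cysteine ligase, the rate-limiting enzyme of glutathione synthesis, was at 19.7, 18.0 and 37.5 FPKM. Its OVA+PM10 level was 1.90-fold that of control and 2.08-fold that of PM10, close to the 2-fold limit on both sides. Gclm, the modifier subunit of the same enzyme, was at 19.7, 19.5 and 25.2 FPKM, and all of its ratios were within 2-fold. Gss, which adds glycine in the last step of synthesis, was at 16.3, 30.9 and 27.0 FPKM, also within 2-fold.

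Slc7a11, the cystine importer that supplies cysteine, had the longest transcript of the set (9223 bases) and was lowest in control. It was at 1.11 FPKM in control, 3.81 in PM10 and 3.12 in OVA+PM10, which are 3.42-fold and 2.80-fold the control level. Because long transcripts as a whole had lower ratios in PM10, subtraction of the trend raised its ratios to control from 1.19 to 2.07 and from 0.96 to 1.32. Slc3a2, the partner chain of this importer, belongs to a list of 27 further genes of glutathione metabolism, of which 26 had a value. In that list 5 were higher and 0 lower in PM10 against control, 1 and 0 in OVA+PM10 against control, and 0 and 1 between the exposed libraries (4 and 3, 1 and 1, and 1 and 1 with the trend subtracted). The shares of all genes to set beside these counts are those given with the other NRF2 targets. The glutaredoxins Glrx3 (24.9, 113.6 and 32.3 FPKM) and Glrx5 (44.4, 132 and 74.6 FPKM) were highest in PM10. So were Ggct, an enzyme of glutathione metabolism (3.60, 15.9 and 8.18 FPKM), and the thioesterase Esd (47.9, 143 and 89.5 FPKM).

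**Figure D3:**
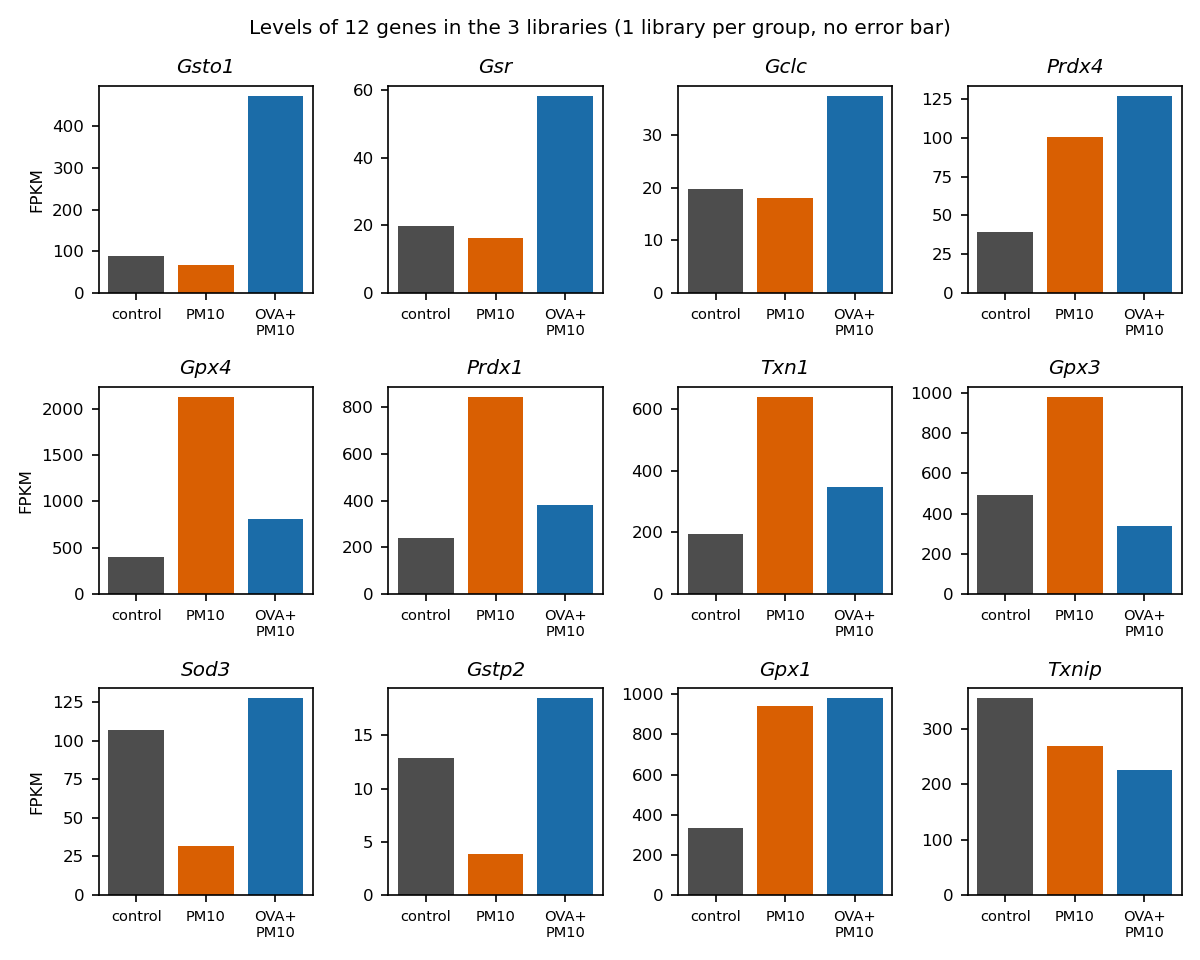
FPKM (y axis, from 0, with its own scale in each panel) of 12 defence genes by library (x axis: control, PM10, OVA+PM10), 1 bar per library and no error bar. Gsto1, Gsr and Gclc have their tallest bar in OVA+PM10, Gpx4, Prdx1, Txn1 and Gpx3 in PM10, Txnip in control, and Sod3 and Gstp2 have their shortest bar in PM10.

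Among the 18 cytosolic and mitochondrial glutathione S-transferases, enzymes that conjugate glutathione to electrophiles, Gsto1 differed most. Gsto1, of the omega class, which also reduces dehydroascorbate and mixed disulfides (chr19:47854970-47864790, plus strand), was at 88.6 FPKM in control, 67.6 in PM10 and 473 in OVA+PM10. The OVA+PM10 level was 5.34-fold that of control and 6.99-fold that of PM10, while the other libraries were within 2-fold of each other as deposited. Its log2 ratios of 2.40 and 2.79 were 1.96 and 3.20 after subtraction of the length trend, which also took the PM10 library from -0.38 to -1.20 against control. Cfap43, a cilium gene on the other strand that overlaps Gsto1, was at 1.38, 2.57 and 5.96 FPKM. The stretch that starts 120 bases before the RefSeq start of Gsto1 (chr19:47854853-47854959, plus strand) is shown for this gene since its values stand farthest from the rest, and ends with a GC box in capitals, GGGCGG, which occurred on either strand in 71.1% of the 45 genes and in 38.2% of all genes.
Gsto1: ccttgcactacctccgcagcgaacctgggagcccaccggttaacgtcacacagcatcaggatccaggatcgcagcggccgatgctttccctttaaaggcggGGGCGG

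Several cell types differed in the same library as Gsto1 and Gsr. The 11 goblet cell markers summed to 45.9 FPKM in control, 18.5 in PM10 and 6978 in OVA+PM10, with 4, 4 and 11 of them at 1 FPKM or more and Gp2 listed at 0 in PM10. The 9 eosinophil markers summed to 32.7, 8.96 and 294 FPKM, with Prg2, Epx, Ear6 and Prg3 listed at 0 in PM10. The 12 neutrophil markers summed to 1068, 982 and 3955 FPKM, with Elane listed at 0 in control and in PM10. Club cell markers (12 of 12 at 1 FPKM or more in each library) summed to 50508, 59738 and 78035 FPKM, mostly Scgb1a1 (42979, 50391 and 65012.5 FPKM). One by one, 4 of the 12 rose from control through PM10 to OVA+PM10, and 3 from PM10 through control to OVA+PM10. The rest of the club cell markers were highest in another library. The part of these cells in the levels of Gsto1, Gsr and Gclc was not tested.

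The pi class pair Gstp1 and Gstp2 encodes proteins that are 97.1% identical, so that the division of reads between them is uncertain. Gstp1 was at 97.9 FPKM in control, 94.8 in PM10 and 140 in OVA+PM10, all within 2-fold as deposited. With the length trend subtracted, its log2 ratio was -1.22 in PM10 against control. The ratio of Gstp1 was then -0.14 in OVA+PM10 against control and 1.10 in OVA+PM10 against PM10. Gstp2 was at 12.9, 3.88 and 18.5 FPKM, 3.32-fold lower in PM10 than in control and 4.78-fold higher in OVA+PM10 than in PM10. Summed, the pair was at 110.8, 98.7 and 158.7 FPKM, and its log2 ratios of -0.17, 0.51 and 0.68 were all within 2-fold as deposited. Their promoters are also alike, with 208 of 235 aligned bases identical (88.5%). The stretches that start 120 bases before each RefSeq start (Gstp1, chr19:4037967-4038032, and Gstp2, chr19:4042279-4042341, both minus strand) show this likeness, with an AP-1 site (TGAGTCA, that is, TGACTCA on the other strand) and GC boxes in capitals, of which Gstp2 has 1 more.
Gstp1: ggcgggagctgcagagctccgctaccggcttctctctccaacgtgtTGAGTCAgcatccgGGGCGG
Gstp2: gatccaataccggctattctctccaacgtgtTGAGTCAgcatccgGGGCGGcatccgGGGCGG

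Of the remaining transferases, Gstt2, Gstk1 and Gstm4 were at least 2-fold apart in some comparison. Gstt2, of the theta class, was at 10.2 FPKM in control, 31.1 in PM10 and 30.7 in OVA+PM10. Both exposed libraries were about equally high, 3.04-fold and 3.01-fold above control, and with the length trend subtracted the log2 ratios were 1.18 and 1.38. Gstk1, the mitochondrial and peroxisomal kappa class enzyme, was at 40.9, 121 and 61.0 FPKM, and Gstm4, of the mu class, was at 6.30, 14.7 and 8.72 FPKM. These 2 were highest in PM10 and came within 2-fold of control after subtraction of the trend (0.52 and 0.63), and at an equal sum of FPKM the ratio of Gstm4 changed sign (-0.0202). Of the alpha class, Gsta4 was at 150.5, 162.8 and 282.8 FPKM and Gsta3 at 62.7, 92.4 and 58.3 FPKM. Both were within 2-fold in every comparison as deposited. With the length trend subtracted, Gsta4 was above 2-fold in OVA+PM10 against PM10 (1.29).

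Of the 18 cytosolic and mitochondrial transferases, the most abundant in the control library were Gstm1 (308, 199 and 309.5 FPKM) and Gstm2 (232, 249 and 243.5 FPKM). Both are of the mu class and were within 2-fold in every comparison as deposited. With the length trend subtracted, the log2 ratio of Gstm1 was -1.36 in PM10 against control and 1.03 in OVA+PM10 against PM10. Gsta1 and Gsta2, 95.5% identical in protein, summed to 9.57, 6.10 and 8.54 FPKM, and Gsta1 alone was at 0.104 FPKM in PM10, near the 0.0874 FPKM that 1 read is worth there. The other 6 transferases (Gstm5, Gstm6, Gstm7, Gstt1, Gstt3 and Gstz1) were between 3.12 and 144 FPKM and within 2-fold in every comparison as deposited. With the length trend subtracted, Gstm6 (-1.10) and Gsta2 (-1.58) were past 2-fold in PM10 against control, and Gstm6 (1.04) in OVA+PM10 against PM10. As a group the 18 transferases had 3 higher and 1 lower in PM10 against control, 2 and 0 in OVA+PM10 against control, and 2 and 0 between the exposed libraries. With the length trend subtracted these were 1 and 7, 2 and 0, and 7 and 0, and the group's median log2 ratios were -0.60, -0.14 and 0.38. Over all genes the shares higher and lower as deposited were 13.6% and 13.9%, 9.95% and 8.68%, and 11.8% and 9.0%. Without the trend they were 6.25% and 11.3%, 7.34% and 8.45%, and 12.0% and 6.36%.

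The membrane-bound transferases Mgst1, Mgst2 and Mgst3 conjugate and reduce lipophilic substrates. Mgst1 was at 239 FPKM in control, 493.5 in PM10 and 534 in OVA+PM10, high in both exposed libraries and 2.06-fold and 2.23-fold above control, but within 2-fold in both with the length trend subtracted (0.09 and 0.69). At an equal sum of FPKM its ratio in PM10 changed sign (-0.20). Mgst2 was at 24.2, 30.4 and 52.9 FPKM, highest in OVA+PM10. Its transcript is the shortest of the set (603 bases), and the ratio to control in OVA+PM10 was 1.10 as deposited and 0.27 with the trend subtracted. Subtraction took Mgst2 past 2-fold in the other comparisons. The ratio went from 0.32 to -1.08 in PM10 against control and from 0.78 to 1.43 in OVA+PM10 against PM10. Mgst3 was at 76.1, 86.9 and 58.6 FPKM.

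Glutathione peroxidases reduce peroxides with glutathione, and 4 of 6 were at least 2-fold higher in PM10 than in control. Of these, Gpx4 alone was so with the length trend subtracted. The shares of all genes higher were 13.6% as deposited and 6.25% with the trend subtracted. Gpx4, which reduces lipid hydroperoxides in membranes and restrains ferroptosis (chr10:80047166-80056439, plus strand), was at 404 FPKM in control, 2129 in PM10 and 808 in OVA+PM10. The PM10 library was the high one, 5.28-fold above control and 2.64-fold above OVA+PM10. After subtraction of the length trend the ratio to control in PM10 was 1.38 instead of 2.40, still above 2-fold, and that between the exposed libraries was -0.90 instead of -1.40. Gpx1, the main cytosolic enzyme (chr9:108338903-108340343, plus strand), was at 334, 943 and 982 FPKM, high in both exposed libraries at 2.83-fold and 2.94-fold the control level. Its ratios without the trend were 0.58 in PM10 and 1.09 in OVA+PM10.

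Gpx3, which is secreted into plasma and the lining fluid of the lung (chr11:54902453-54910377, plus strand), was at 493 FPKM in control, 981 in PM10 and 338 in OVA+PM10. It was the only peroxidase lowest in OVA+PM10, where it was 2.90-fold below PM10 (log2 ratio -1.53, and -1.33 without the trend). The same order of libraries was seen in the sums of 12 alveolar type 1 cell markers (3160, 3804 and 1313 FPKM), 12 endothelial markers (1766, 2266 and 906 FPKM) and 12 fibroblast markers (3217, 5351 and 1923 FPKM), all at 1 FPKM or more in each library. One by one, 6, 3 and 2 markers of these lists had that order. Instead, 5 alveolar type 1 and 7 endothelial markers fell from control through PM10 to OVA+PM10. Of the fibroblast markers, 5 rose from PM10 through control to OVA+PM10, and 3 from PM10 through OVA+PM10 to control. The largest part of the fibroblast sum was Inmt (1771, 4513 and 827 FPKM). The part of these cells in the level of Gpx3 was not tested. Gpx7 and Gpx8, peroxidases of the endoplasmic reticulum, were at 9.79, 24.2 and 12.4 FPKM and at 41.7, 91.3 and 57.2 FPKM, highest in PM10. Without the length trend both were within 2-fold of control (0.50 and 0.16), and at an equal sum of FPKM the ratio of Gpx8 changed sign (-0.11). Gpx2, of epithelia, was at 46.0, 47.4 and 71.8 FPKM.

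**Figure D4:**
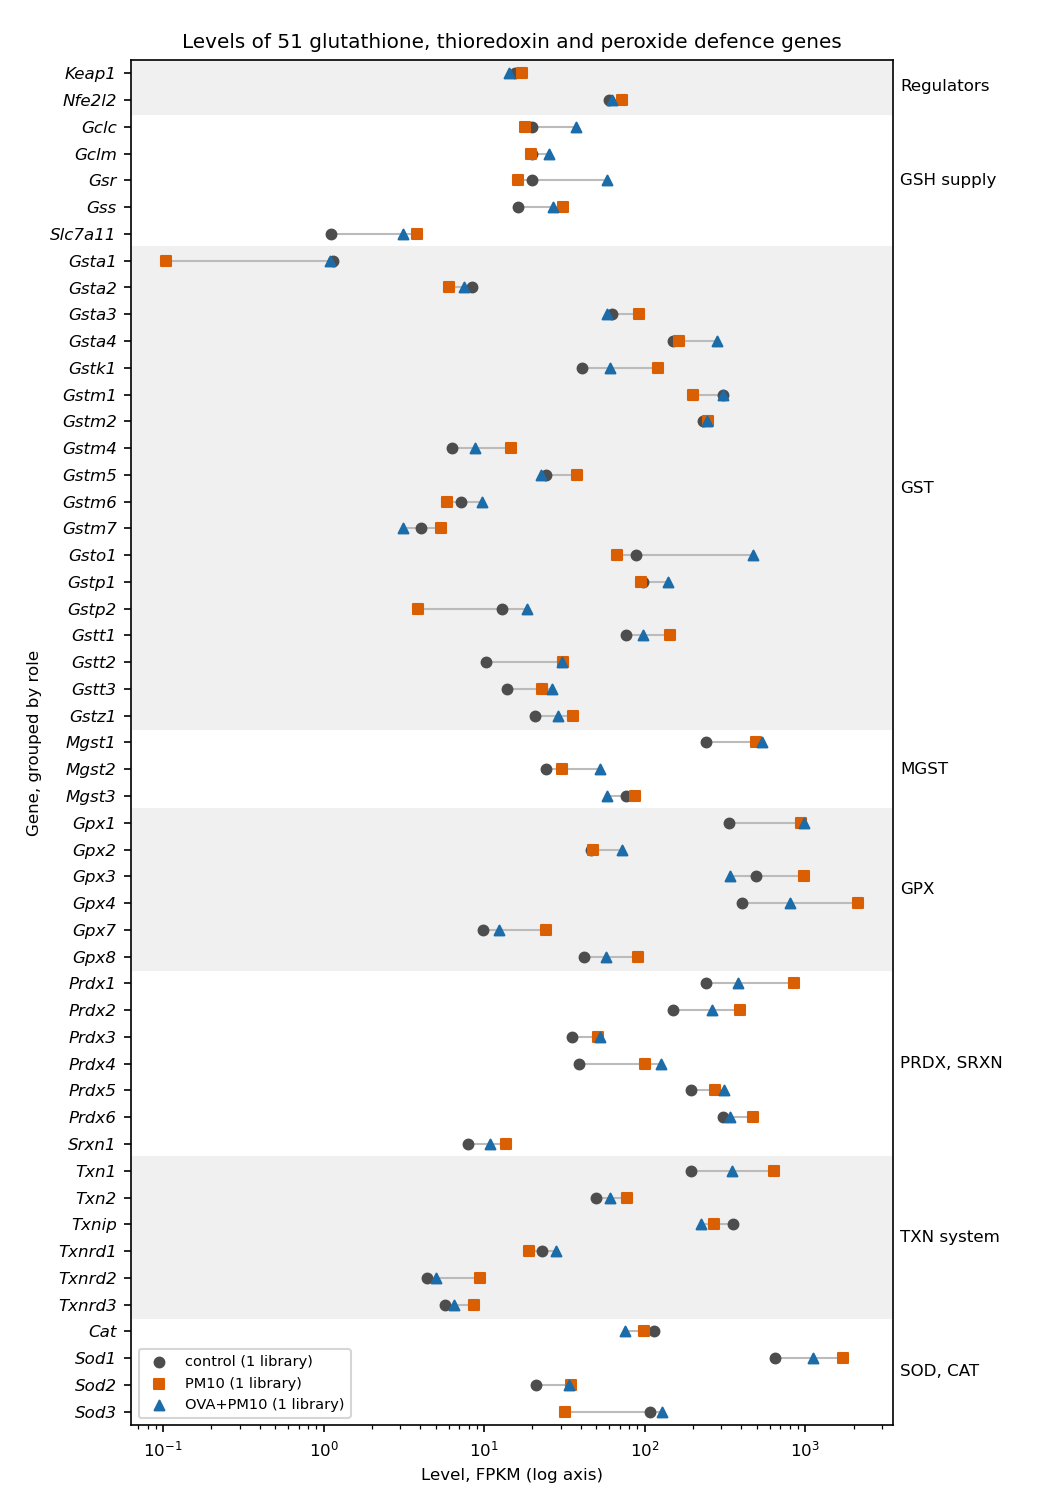
FPKM (log scale) of each of the 51 genes by library (control, PM10, OVA+PM10), grouped by role, 1 point per library. The most abundant genes are Sod1 (651 FPKM in control) and Gpx4 (2129 FPKM in PM10), and 31 of the 51 genes have their lowest value in control.

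Peroxiredoxins reduce peroxides with thioredoxin, and Prdx1, Prdx2 and Prdx4 were higher by 2-fold or more in PM10 than in control. The share of all genes that were so was 13.6%. Prdx1, an abundant cytosolic enzyme (chr4:116685544-116700822, plus strand), was at 242 FPKM in control, 845.5 in PM10 and 382 in OVA+PM10. The PM10 library was high, and the log2 ratio to control was 1.80 as deposited and 1.31 with the trend subtracted. Prdx4, of the endoplasmic reticulum (chrX:155323918-155340754, minus strand), had another order, with 39.1, 101 and 127 FPKM. Both exposed libraries were high, 2.58-fold and 3.25-fold above control, and without the trend only the OVA+PM10 ratio stayed above 2-fold (1.17, against 0.37 in PM10).

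Prdx2, a cytosolic enzyme abundant in red blood cells, was at 150 FPKM in control, 391 in PM10 and 263 in OVA+PM10. Its log2 ratio of 1.38 in PM10 against control came under 2-fold with the length trend subtracted (0.88) and at an equal sum of FPKM (0.14). Of 12 red blood cell markers 9 were in the tables; they summed to 3640, 23475 and 7733 FPKM, mostly Hba-a1 (3338, 20709 and 6994 FPKM), with Hbb-bs listed at 0 in both exposed libraries. The order of these sums was that of 3 of the 9 markers, while Alas2, of heme synthesis in erythroid cells, was at 113, 169 and 195 FPKM. Gpx1, Prdx2 and Sod1 are known to be abundant in red blood cells, whose part in their levels was not tested. Prdx3 of mitochondria (35.2, 51.5 and 52.8 FPKM), Prdx5 (195, 273 and 313 FPKM) and Prdx6 (308, 472 and 339 FPKM) were within 2-fold in every comparison. Srxn1, sulfiredoxin, which repairs overoxidised peroxiredoxins and is a well-known NRF2 target, was at 7.89, 13.7 and 10.8 FPKM, within 2-fold as well.

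In the thioredoxin system only Txn1 was 2-fold apart on the scale of FPKM + 1. Txn1, the cytosolic thioredoxin (chr4:57943373-57956411, minus strand), was at 193 FPKM in control, 640 in PM10 and 348 in OVA+PM10. It was 3.31-fold higher in PM10 than in control, and its log2 ratio of 1.72 was 0.79 with the length trend subtracted. Txnrd1, which recharges it and is an NRF2 target, was at 22.8, 19.0 and 28.0 FPKM, lowest in PM10. Txnip, which binds and inhibits thioredoxin, was at 356, 268.5 and 225 FPKM, highest in control. Txn2, the mitochondrial thioredoxin (49.6, 77.3 and 61.1 FPKM), and Txnrd3 (5.72, 8.62 and 6.45 FPKM) were within 2-fold. Txnrd2, the mitochondrial reductase, was at 4.43, 9.37 and 4.99 FPKM, 2.12-fold higher in PM10 than in control by FPKM alone and within 2-fold after 1 FPKM was added (log2 ratio 0.93). Of 24 other thioredoxin-like and selenoprotein genes, 5 were higher and 2 lower in PM10 against control, 3 and 0 in OVA+PM10 against control, and 3 and 1 between the exposed libraries (2 and 0, 2 and 0, and 3 and 0 without the trend). Here too, the shares of all genes are those given with the other NRF2 targets. Msrb1, a methionine sulfoxide reductase, was at 86.0, 276.5 and 155 FPKM, and Txndc17, a cytosolic thioredoxin-like protein, was at 42.0, 128 and 65.9 FPKM. Txndc5, a disulfide isomerase of the endoplasmic reticulum (62.0, 66.4 and 175 FPKM), and Txndc11 (6.12, 10.7 and 19.2 FPKM) were instead highest in OVA+PM10, where 12 B and plasma cell markers summed to 1725 FPKM against 325 in control and 415 in PM10; the part of those cells was not tested.

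Superoxide dismutases turn superoxide into hydrogen peroxide, which catalase and the peroxidases above remove. Sod3, the extracellular enzyme that is abundant around blood vessels and airways (chr5:52363791-52371418, plus strand), was at 107 FPKM in control, 31.8 in PM10 and 128 in OVA+PM10. The PM10 library alone was low, 3.37-fold below control and 4.03-fold below OVA+PM10, and the log2 ratios of -1.72 and 1.98 were -1.56 and 1.92 with the length trend subtracted. The sums of 11 smooth muscle markers had the same order (641, 320 and 831 FPKM, with 10, 10 and 11 of them at 1 FPKM or more and none listed at 0), as did 5 of the 11 markers one by one. Among those 5, Myh11, the smooth muscle myosin, was at 42.1, 8.37 and 68.7 FPKM. The others of the 11 had different orders: 4 were lowest in PM10 but highest in control, 1 was lowest in OVA+PM10 and 1 was lowest in control. The part of smooth muscle in the level of Sod3 was not tested.

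Sod1, the cytosolic copper-zinc enzyme (chr16:90220754-90226329, plus strand), was at 651 FPKM in control, 1731 in PM10 and 1111 in OVA+PM10. Its level in PM10 was 2.66-fold that of control, with a log2 ratio of 1.41 as deposited. It lay at the trend for its principal transcript length (641 bases), with a ratio of 0.06 after subtraction. That result depended on the length used. With the longest transcript as length, an alternative chosen after seeing the data, the ratio of Sod1 was 1.53. Sod2, the mitochondrial manganese enzyme, has a transcript of 5861 bases and stood on the other side of the trend. It was at 21.1, 34.9 and 33.6 FPKM, within 2-fold of control as deposited (0.70 and 0.65) and above 2-fold in both exposed libraries with the trend subtracted (1.32 and 1.02). Cat, catalase, which breaks down hydrogen peroxide in peroxisomes, was at 115 FPKM in control, 98.8 in PM10 and 75.6 in OVA+PM10, highest in control and within 2-fold.

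The order of the libraries differed between these genes and genes in general. The control library was the lowest for 31 of the 51 genes (60.8%, against 35.4% of 14145 genes) and the highest for 4 (7.84%, against 35.1%). The order control, OVA+PM10, PM10 from low to high was found for 22 of them (43.1%, against 23.1%). The PM10 library was the highest for 28 genes (54.9%, against 38.1%) and the OVA+PM10 library for 19 (37.3%, against 26.8%). These shares are of FPKM as deposited and include the length trend.

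Annotation limits some of these values. Of the 51 genes, 20 overlap another annotated gene and 16 overlap one on the other strand, and no source used here says whether the deposited values used the strand. Among the overlapping protein-coding genes were Junb with Prdx2 (38.9, 47.5 and 46.9 FPKM) and Trmt112 with Prdx5 (52.4, 76.8 and 61.8 FPKM).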

How the data were processed

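Lung RNA of 3 libraries was measured, 1 library per group, with groups taken from the labelled agent. Per the labels' protocols, RNA was extracted with Trizol and 1.3 µg per library entered the NEBNext Ultra II Directional kit, which keeps the strand. The deposited values of 23183 genes per library are FPKM, a unit inferred from the values since no header names it. TopHat and mm10 are named in the submitters' processing notes; the counting program, the annotation, the strand setting and the handling of reads with several matches were not given in the sources used here. No scaling was added. The log2 ratio of FPKM + 1 was computed for each of 3 pairs of libraries over all genes with at least 1 FPKM in either library, and counted at 2-fold. With 1 library per group no test, p-value or standard error is given.

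Transcript lengths (median of the principal transcripts) and gene coordinates were read from GENCODE M21 (GRCm38, which is mm10), where 22148 symbols (95.5%) were found. The length trend was the median over windows of 501 genes sorted by length. Depth was estimated from the spacing of low values (0.0498, 0.0765 and 0.0660 FPKM for 1 read in 1 kilobase in control, PM10 and OVA+PM10), so that values under about 1 FPKM rest on few reads. Pairs were called near-identical at 90% protein identity over 80% of their length. Promoter windows came from RefSeq on GRCm38.

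Values in every library are given for genes 2-fold apart in any comparison with at least 5 FPKM, the most abundant gene of each role and 10 genes fixed by name; the other genes' values were added to account for all 51. Of each further gene list, up to 4 with the largest ratio to control are named, and 1 such gene and 1 overlapping gene are not reported here. Junb, Trmt112, Cfap43, Myh11, Alas2, Hba-a1, Scgb1a1 and Inmt were named after their values were seen. The genes and lists were chosen with earlier results of these data known. Alternatives were other pseudocounts, filters and thresholds, scaling by the median ratio or to the same sum, subtraction of the length trend, summed near-identical genes and, chosen after seeing the data, the longest transcript as length. The code was tested on simulated data. Python 3.11.15, pandas 2.3.3, numpy 2.4.6, scipy 1.17.1, Biopython 1.88 and matplotlib 3.10.9 were used.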

Additional observations from a re-analysis of the deposited data

How the results depend on the processing

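Of 31 gene ratios at 2-fold or more, 9 were at 2-fold or more under each alternative run: Gpx4 and Prdx4 against control (in PM10 and in OVA+PM10), Gsr between the exposed libraries, Gsto1 against both other libraries, and Gstp2 and Sod3 in PM10 against both other libraries (Gstp2 has no ratio of its own when summed with Gstp1). The other 22 came under 2-fold under at least 1. Counts of genes higher and lower, in the order PM10 against control, OVA+PM10 against control and OVA+PM10 against PM10, were 25 and 4, 20 and 2, and 11 and 13 at a threshold of 1.5-fold, and 1 and 0, 1 and 0, and 2 and 0 at 4-fold (all genes: 26.3% and 25.5%, 20.6% and 17.7%, and 22.7% and 22.5% at 1.5-fold, and 2.21% and 3.83%, 1.49% and 1.99%, and 2.14% and 0.819% at 4-fold). They were 1 and 19, 2 and 4, and 13 and 0 when libraries were scaled to the same summed FPKM, 5 and 9, 8 and 0, and 11 and 1 with the length trend subtracted, and 6 and 8, 7 and 0, and 9 and 2 with the longest transcript as length, an alternative chosen after seeing the data. With the longest transcript as length, the shares of all genes were 7.69% and 11.3%, 7.57% and 8.36%, and 12.0% and 6.65%. With near-identical genes summed, 1 gene instead of 2 was lower in PM10 against control, against 13.9% of all genes. At the same summed FPKM the ratios of Gpx8 (-0.11), Gstm4 (-0.0202) and Mgst1 (-0.20) in PM10 against control changed sign. Counts under the other pseudocounts, filters and median-ratio scaling stayed within 1.5 times those reported. No replicate could be left out, and spread between mice is unknown. No paired analysis was possible because each group has 1 library. Genes under about 1 FPKM, Gsta1 among them, rest on few reads.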

Other observations

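Enzymes that produce superoxide, hydrogen peroxide or nitric oxide were read from a list of 21 genes, of which 16 or 17 had at least 1 FPKM in a comparison. Of these, 8 were higher and 4 lower by 2-fold or more in PM10 against control, 7 higher and 3 lower in OVA+PM10 against control, and 3 higher and 2 lower in OVA+PM10 against PM10, and with the length trend subtracted the counts were 8 and 2, 7 and 3, and 3 and 2. Over all genes the shares higher and lower, in the same order, were 13.6% and 13.9%, 9.95% and 8.68%, and 11.8% and 9.0%. With the length trend subtracted they were 6.25% and 11.3%, 7.34% and 8.45%, and 12.0% and 6.36%. Cyba, the p22phox subunit of the phagocyte NADPH oxidase, was at 163 FPKM in control, 925 in PM10 and 580 in OVA+PM10. Noxa1, the activator of the NOX1 oxidase, was at 1.04, 7.95 and 8.95 FPKM. Both were low in control and high in both exposed libraries, as was the sum of 14 markers of monocytes and recruited macrophages (1069, 3247 and 2434 FPKM, all 14 at 1 FPKM or more in each library and 12 of them lowest in control), whose part in these levels was not tested. Xdh, xanthine dehydrogenase, which also produces superoxide in its oxidase form, was at 47.5, 9.68 and 19.1 FPKM, highest in control.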
